A study of Homo sapiens with 6 samples.

Results

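The genes described here are 10 housekeeping genes that are transcribed at high levels in most cell types: EEF1A1, EEF2, ACTB, TUBA1B, HSP90AB1, HSPA8, GAPDH, ENO1, PKM and NCL. They were chosen by name, not by their peaks, though with earlier results of these data known. A peak was counted for a gene when it overlapped the gene's span in the genome build hg19 by at least 1 bp. The 10 spans measured 3454 to 32358 bp and 97447 bp in all. They held 5 peaks, which were 2 of 10960 and 2 of 25797 in the lists of the first experiment (RIP-1) and 1 of 10280 and 0 of 134094 in those of the second (RIP-2).

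The peaks come from RNA immunoprecipitation and sequencing (RIP-seq), which recovers a protein with an antibody and sequences the RNA that comes with it. Wild-type HEK293T cells, a human embryonic kidney line that carries the SV40 large T antigen, gave 6 libraries in 2 RIP experiments, each with an anti-SF3B4, an IgG and an input library. Nothing in the labels says whether the experiments used separate cultures. The authors split the peaks of each experiment into files named mRNA and NotExon (called mRNA and non-exon lists here), without a definition of either name in the sources used here. No values of the IgG or input libraries by themselves were analysed here. No read counts or expression levels are in the lists, so library depth is unknown and the high expression of these genes in these cells was not checked. Each list is 1 call of 1 experiment, so no value carries an error across replicates and no test was run between RIP-1 and RIP-2.

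SF3B4 belongs to the SF3b complex, with which the U2 small nuclear ribonucleoprotein (U2 snRNP) settles on the branch site of an intron before splicing. It touches the pre-mRNA just upstream of that site. Housekeeping genes make large amounts of spliced mRNA, and such abundant RNAs are often the ones that come down non-specifically in an immunoprecipitation, which is what the IgG library is meant to show. METTL16, which the series title pairs with SF3B4, adds methyl groups to RNA.

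The sequences before an annotated transcript start of TUBA1B and GAPDH are shown because these are the 2 genes whose single peak extended over nearly all or all of the gene. The TUBA1B peak stopped 5 bp short of the 5′ edge of the span and the GAPDH peak passed it. They are the 250 bases before the annotated start in RefSeq (GRCh38.p14), 5′ to 3′ on the strand of the gene, and capitals mark GC boxes (GGGCGG or its reverse complement CCGCCC). The TUBA1B sequence is chr12:49131396-49131645 on the minus strand, and that of GAPDH is chr12:6535014-6535263 on the plus strand.
TUBA1B: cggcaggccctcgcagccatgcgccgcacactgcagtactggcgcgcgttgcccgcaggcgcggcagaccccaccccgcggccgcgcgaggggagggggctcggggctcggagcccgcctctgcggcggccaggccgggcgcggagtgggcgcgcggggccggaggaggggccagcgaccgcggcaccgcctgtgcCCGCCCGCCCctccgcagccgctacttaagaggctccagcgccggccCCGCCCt
GAPDH: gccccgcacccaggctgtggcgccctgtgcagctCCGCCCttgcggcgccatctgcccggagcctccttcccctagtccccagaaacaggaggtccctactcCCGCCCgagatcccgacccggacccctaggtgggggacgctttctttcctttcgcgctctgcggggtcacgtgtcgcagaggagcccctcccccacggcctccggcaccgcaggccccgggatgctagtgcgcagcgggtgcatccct
The TUBA1B sequence holds 3 GC boxes, of which 2 overlap, and is 81.2% G and C, and the GAPDH sequence holds 2 and is 71.2% G and C. The GAPDH start used in that table lies 747 bp inside the gene, at the start of a shorter transcript. The GAPDH sequence shown therefore lies inside the gene, not upstream of its 5′ edge. Of the 10 genes, 9 had an entry in the table and ACTB had none. All 9 held a GC box on either strand in each of their 11 sequences before a start, against 42.6% of all 35116 sequences in the table. The G and C content was 67.6% for the genes with an entry and 57.2% for all sequences. Its part in the count of GC boxes was not tested. CCAAT on either strand was found in 3 of the 11 sequences (of HSPA8, NCL and PKM), against 32.0% of all sequences. TATAAA on either strand was found in 1 of the 11 (of EEF2), against 10.7%. These sequences are of another build than the peaks, and no peak was placed on them.

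RIP-1 had a peak in 4 of the 10 genes (EEF2, TUBA1B, GAPDH and PKM) and RIP-2 had a peak in PKM alone. The other 6 genes (EEF1A1, ACTB, HSP90AB1, HSPA8, ENO1 and NCL) had none in any of the 4 lists. For scale, the genome was divided into windows as long as each of the genes. Of such windows, 2.03% held a peak of the RIP-1 mRNA list, 5.34% one of the RIP-1 non-exon list, 1.88% one of the RIP-2 mRNA list and 22.3% one of the RIP-2 non-exon list. Short windows are the most numerous, and when the 10 lengths counted equally the shares were 2.95%, 7.73%, 2.80% and 29.5%. Among windows within 5 Mb of the genes the share for the RIP-1 mRNA list was 3.48%. The genes' own counts were 2, 2, 1 and 0 of 10 in the same order. Most windows lie between genes or in long introns, so these shares are no background over expressed genes, and nothing particular to housekeeping genes was read from them.

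**Figure D1:**
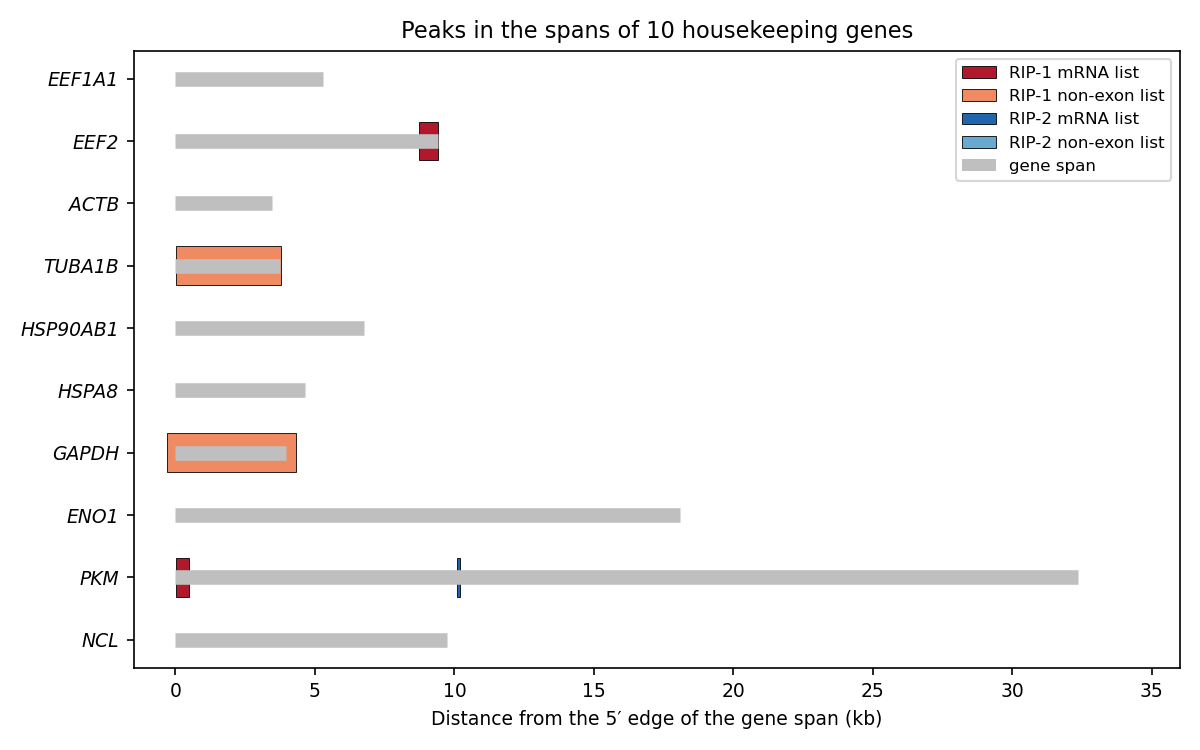
Map of the 10 gene spans (grey bars, to scale) with the peaks of the 4 lists (coloured boxes), drawn from the 5′ edge of each gene in kb. RIP-1 boxes stand at the 3′ end of EEF2, over TUBA1B and GAPDH and at the 5′ edge of PKM, the single RIP-2 box is inside PKM, and 6 spans are empty.

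The translation elongation factors differed in RIP-1. EEF2, the GTPase that moves the ribosome along the mRNA, had a segment of the mRNA list on its own (minus) strand, on chromosome 19 from 3976053 to 3976745, 692 bp wide. The segment sits at the 3′ end of the gene, 8716 bp from its 5′ edge, and covers 7.36% of the span. Its deposited start is 1 bp below the 3′ edge of the gene span (3976054), where a start counted from 0 would put that edge. Its deposited score, which behaved as 10 times the negative log10 of a p-value, was 3100. That value was reached or passed by 58 of 10960 peaks of the list (0.529%). Of these, 7 scored higher than EEF2 and 51 stood at exactly 3100, EEF2 among them, with no order between the 51. Within 500 kb of EEF2 it had the highest score of 30 RIP-1 mRNA-list peaks, and the next had 925.

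RIP-2 had no peak in EEF2. The nearest RIP-2 mRNA-list peak lay 238662 bp away and the nearest RIP-2 non-exon peak 84654 bp away, the largest distance among the 10 genes for that list. EEF1A1, the factor that brings aminoacyl-tRNA to the ribosome, had no peak in any list. Its nearest RIP-1 peaks were 9483 bp (non-exon) and 101729 bp (mRNA list) from the span, and its nearest RIP-2 peaks 13776 bp and 72823 bp. The gene pair thus held 1 of the 5 peaks, and that peak was at the 3′ end of its gene.

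Of the cytoskeletal genes, TUBA1B, an alpha-tubulin gene, had a RIP-1 peak and ACTB, the cytoplasmic beta-actin gene, had none. The TUBA1B peak stood in the non-exon list, on chromosome 12 from 49521524 to 49525299, 3776 bp wide. It covered 99.9% of the gene span, beginning 42 bp beyond the 3′ edge and ending 5 bp inside the 5′ edge. A peak of the list named NotExon therefore covered exons as well as introns of this gene. The non-exon lists carry no strand, so the strand of the RNA under the peak is unknown. In RefSeq (GRCh38) the next gene on the 5′ side is the antisense gene TUBA1B-AS1, 210 bp away. The peak ended before the 5′ edge of TUBA1B and so did not reach the annotated bounds of that gene.

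The TUBA1B peak had a score of 3100, a fold enrichment over the unstated control of 16.91 and a false discovery rate (FDR) of 2.53%, all as deposited by the authors. The score of 3100 was the highest of the RIP-1 non-exon list. Exactly that value was given to 21 of its 25797 peaks, TUBA1B among them, with no order between the 21. A fold enrichment of 16.91 or more was reached by 99 (0.384%). An FDR of 5% or less was given to 0.678% of the list, 175 peaks, and both peaks in housekeeping genes of that list were among them. It had the highest score of 23 RIP-1 non-exon peaks within 500 kb, the next having 703, while 1 of them had a higher fold enrichment. Among the 360 peaks of the list that were at least as wide, 353 had a lower fold enrichment and the median fold enrichment was 4.97.

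RIP-2 had no peak in TUBA1B and its nearest was a non-exon peak 12668 bp from the span, with a score of 115 and an FDR of 100%. That FDR was given to 41.6% of the RIP-2 non-exon list and to 94.1% of the RIP-1 non-exon list. No peak of the RIP-2 non-exon list had an FDR of 5% or less. A RIP-1 mRNA-list peak with a score of 1178 lay 53299 bp from the span on the minus strand, from 49578603 to 49579773, and its gene was not determined because no hg19 annotation was at hand. Alpha-tubulin genes are near copies of each other, and the sources used here do not say how reads that match several genes were counted, so the assignment to TUBA1B is uncertain. ACTB had its nearest RIP-1 peaks at 21518 bp (mRNA list) and 27166 bp (non-exon), and its nearest RIP-2 peaks at 115000 bp and 41362 bp.

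**Figure D2:**
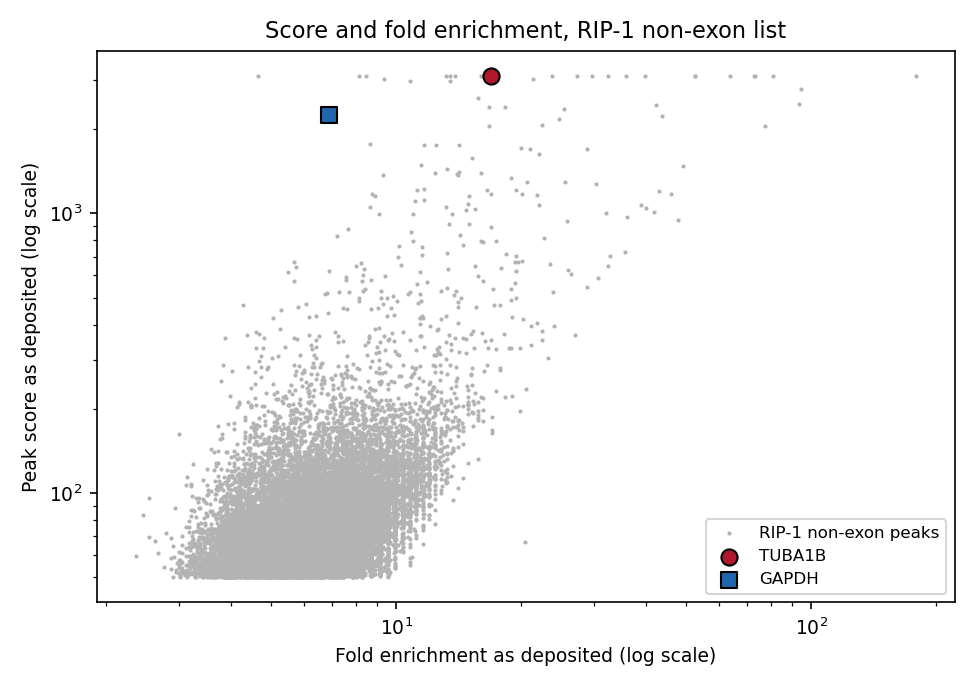
Deposited score (vertical, log scale) against deposited fold enrichment (horizontal, log scale) of all 25797 RIP-1 non-exon peaks (grey points), with the peaks of TUBA1B (red circle) and GAPDH (blue square). TUBA1B lies high on both axes, at 16.91 and 3100, while GAPDH has a score of 2253 at a fold enrichment of 6.88.

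Neither chaperone gene had a peak. HSP90AB1 encodes the constitutive HSP90 chaperone and HSPA8 the constitutive HSP70 chaperone of the cytosol. The nearest RIP-1 peaks of HSP90AB1 were 37562 bp (non-exon) and 99611 bp (mRNA list) away, and its nearest RIP-2 peaks 32686 bp and 74039 bp. HSPA8 was 240167 bp from the nearest RIP-1 non-exon peak, the largest such distance of the 10 genes, and 13371 bp from the nearest RIP-2 non-exon peak. HSPA8 lodges 3 small nucleolar RNA genes (SNORD14C, SNORD14D and SNORD14E) within its bounds in RefSeq, and no peak of either experiment marked them.

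Among the glycolytic enzymes, GAPDH and PKM had peaks and ENO1, which makes phosphoenolpyruvate, had none. GAPDH, the enzyme that oxidises glyceraldehyde 3-phosphate, had 1 RIP-1 non-exon peak, on chromosome 12 from 6643285 to 6647919. It was 4635 bp wide and covered 100% of the span, reaching 300 bp beyond the 5′ edge and 382 bp beyond the 3′ edge. Its score was 2253, which 34 peaks of the list reached or passed, itself included (0.132%), and its FDR was 3.33%. It had the highest score of 17 RIP-1 non-exon peaks within 500 kb, and 3 of them had a higher fold enrichment. The next by score had 377 with a fold enrichment of 7.12 and lay 15938 bp before the gene.

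The fold enrichment of the GAPDH peak was ordinary for its list. It was 6.88, against a list median of 6.55, and 41.7% of the list had that value or more. Among the 34 peaks with a score at least as high, 1 had a lower fold enrichment and the median was 22.6. Among the 4180 peaks within 5% of its fold enrichment, the median score was 63.4 and the median width 620 bp. The GAPDH peak thus combined a middling fold with a score of the top of the list and a width that 177 of 25797 peaks reached (0.686%). Sequencing depth at GAPDH and at those other peaks is unknown. In RefSeq the nearest genes to GAPDH are GAPDH-DT before it, 109 bp away, and IFFO1 after it, 589 bp away, and since the list has no strand the parts of the peak beyond the gene were not assigned.

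RIP-2 had no peak in GAPDH, and its nearest was a non-exon peak 31727 bp from the span. ENO1 was 50620 bp from the nearest RIP-1 non-exon peak and 28512 bp from the nearest RIP-2 non-exon peak. Its nearest mRNA-list peaks were farther than those of any other of the 10 genes, with 365832 bp for RIP-1 and 303477 bp for RIP-2. Among its neighbours within 100 kb on each side were 15 RIP-2 non-exon peaks, the most of the 10 genes, although the gene itself held none.

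PKM, which makes pyruvate and is spliced into the isoforms PKM1 and PKM2 through a choice between a pair of exons, was the longest of the genes at 32358 bp and the single one with a peak in both experiments. The RIP-1 segment of the mRNA list lay on chromosome 15 from 72523236 to 72523722, on the minus strand of the gene, and ended 5 bp inside its 5′ edge. The RIP-2 segment of the mRNA list lay from 72513512 to 72513625 on the same strand, 10102 bp from the 5′ edge. The segments were 486 and 113 bp wide and 9611 bp apart on the genome, so they did not overlap. Their distance along the spliced RNA is unknown. Which exons they match was not determined, since an hg19 annotation was not used here.

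Both PKM segments were of middling strength. The RIP-1 segment had a score of 96.5, which 36.8% of its list reached or passed, and was the third of 8 RIP-1 mRNA-list peaks within 500 kb. The RIP-2 segment had a score of 107, which 27.9% of its list reached or passed, and was number 4 of 15 within 500 kb. Windows as long as PKM held a mRNA-list peak in 8.19% of cases for RIP-1 and in 8.11% for RIP-2, and a RIP-2 non-exon peak in 64.7%. PKM had no non-exon peak in either experiment, and the nearest were 7341 bp away (RIP-1) and 5712 bp away (RIP-2).

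**Figure D3:**
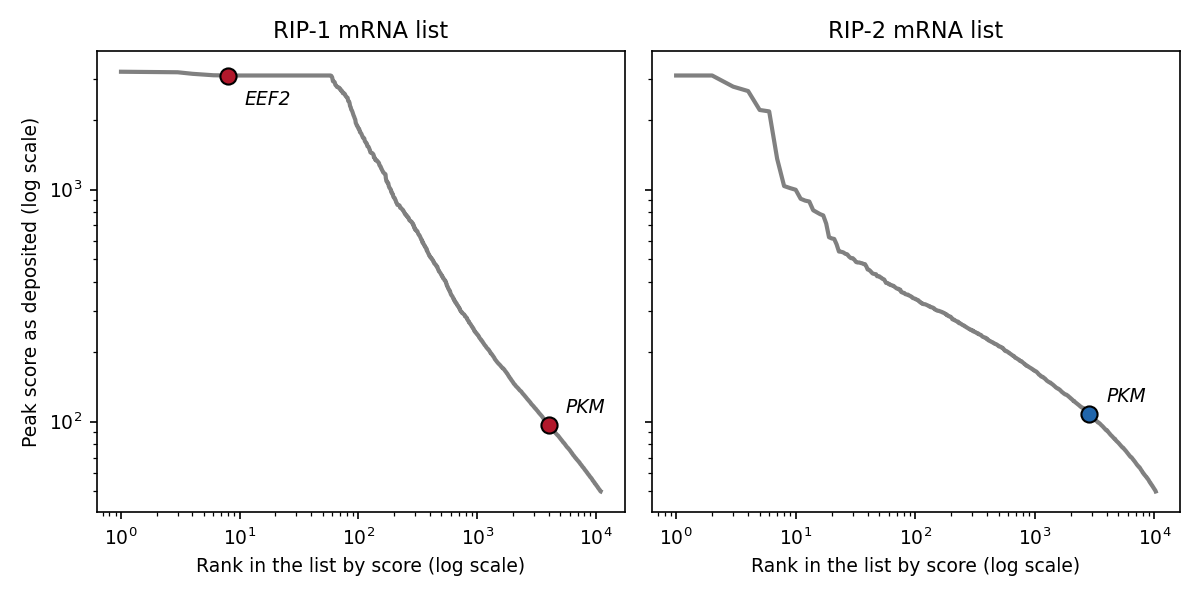
Deposited scores of the mRNA lists ranked from the strongest (both axes on log scales), RIP-1 on the left and RIP-2 on the right, with the segments in housekeeping genes as coloured points. EEF2 stands on the plateau at 3100 in RIP-1, drawn at the first of its tied ranks, and the PKM segments stand at ranks 4029 of 10960 (RIP-1) and 2866 of 10280 (RIP-2).

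NCL, which encodes nucleolin, a nucleolar protein needed to make ribosomes, had no peak in any list. It was 163303 bp from the nearest RIP-1 mRNA-list peak and 186568 bp from the nearest RIP-1 non-exon peak, and no RIP-1 peak lay within 100 kb of it. A RIP-2 non-exon peak lay 5969 bp away, with a score of 105 and an FDR of 100%, a value shared by 41.6% of that list. NCL lodges 3 small nucleolar RNA genes (SNORA75, SNORD20 and SNORD82). In all, 4 of the 10 genes hold 8 small RNA genes in RefSeq (EEF2 has SNORD37 and ENO1 has MIR6728), and none of the 4 had a non-exon peak. Among all 10 genes, only 2 had a non-exon peak in RIP-1 and 0 in RIP-2. Nothing about genes that hold small RNA genes was therefore read from that count.

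None of the 4 RIP-1 peaks in these genes met a RIP-2 peak of its kind of list by even 1 bp, and the 1 RIP-2 peak met no RIP-1 peak. Over whole lists, the share of RIP-1 peaks with such a partner was 6.41% in the mRNA lists, and in the non-exon lists it was 18.1%. The series' design text gives the exclusion of non-specific reads as the purpose of repeating the RIP. With 4 peaks, a count of 0 is too small to be set against those shares. EEF2, TUBA1B and GAPDH, the genes with the high scores, had their peaks in RIP-1, and the RIP-2 peak closest to any of them lay 12668 bp from the span of TUBA1B.

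**Figure D4:**
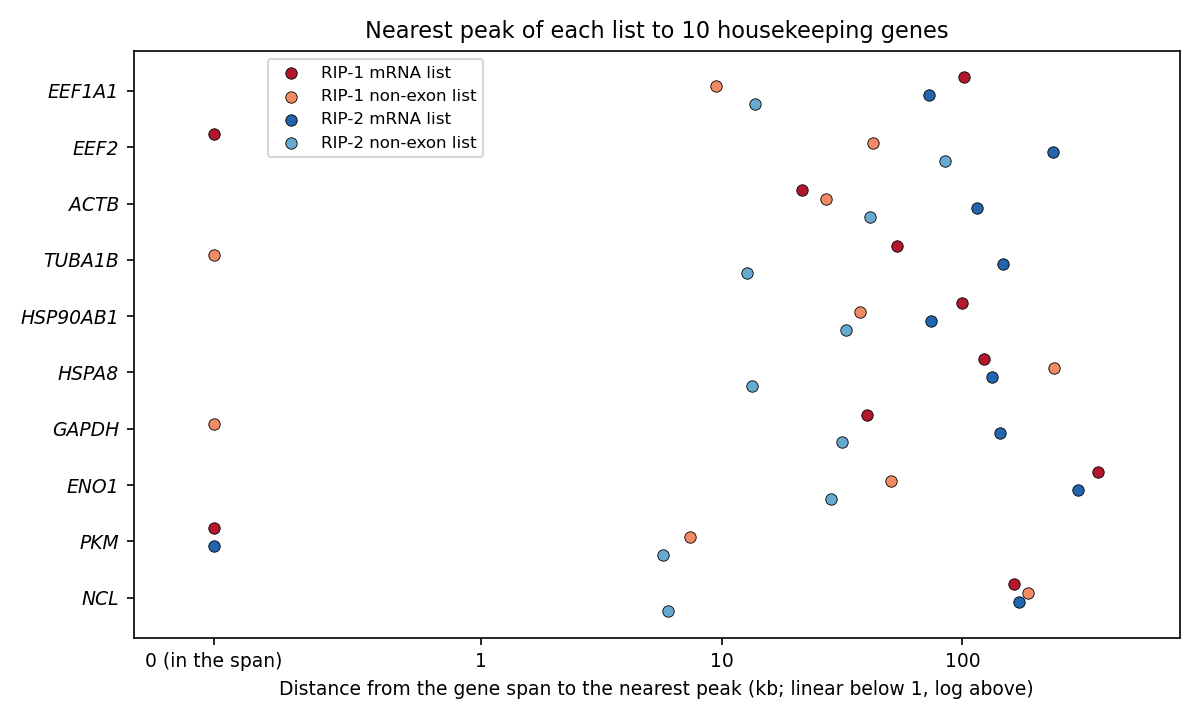
Distance in kb from each gene span to the nearest peak of each list (horizontal, linear below 1 and log above), with 1 point per gene and list. Points at 0 stand for the 5 peaks inside EEF2, TUBA1B, GAPDH and PKM, and the nearest RIP-2 non-exon peaks (light blue) lie from 5712 bp at PKM to 84654 bp at EEF2.

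Peaks of every list were found around the genes. The flanks of 100 kb on each side held 15 RIP-1 mRNA-list peaks, 20 RIP-1 non-exon peaks, 4 RIP-2 mRNA-list peaks and 63 RIP-2 non-exon peaks. RIP-2 non-exon peaks were found in the flanks of all 10 genes, 3 to 15 per gene with a median of 6, while the spans between those flanks held none. The spans' count of 0 allows a density of up to 3.08 per 100 kb (3 counts, counting error alone), against 3.15 in the flanks (95% Poisson interval 2.42 to 4.03) and 4.33 over all chromosomes. The limit lies within the interval of these flanks, while the mean over all chromosomes, and the 4.68 per 100 kb in flanks of 500 kb, lay above it. Flanks of 50 kb held 2.5 per 100 kb, below the limit. The 95% Poisson interval of the count of 0, made as for the flanks, reaches 3.79 per 100 kb. That is above the flanks of 100 kb and below both the mean over all chromosomes and the flanks of 500 kb. Whether the spans differ from their surroundings in this list was not tested.

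In both RIP-1 lists and in the RIP-2 mRNA list the direction was the opposite, with wide intervals from 1 or 2 peaks. Most of the genome lies between genes or in long introns, so the values over all chromosomes are no background over expressed genes. The spans held 2.05 RIP-1 mRNA-list peaks per 100 kb (95% Poisson interval 0.249 to 7.41), against 0.75 in the flanks and 0.354 over all chromosomes. RIP-1 non-exon peaks had the same density of 2.05 in the spans (0.249 to 7.41), against 1.0 in the flanks and 0.834 over all chromosomes. In the RIP-2 mRNA list 1 peak gave 1.03 per 100 kb (0.0260 to 5.72), against 0.2 in the flanks and 0.332 over all chromosomes. The 95% Poisson intervals of both RIP-1 lists and of the RIP-2 mRNA list include the values of the flanks and those over all chromosomes.

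**Figure D5:**
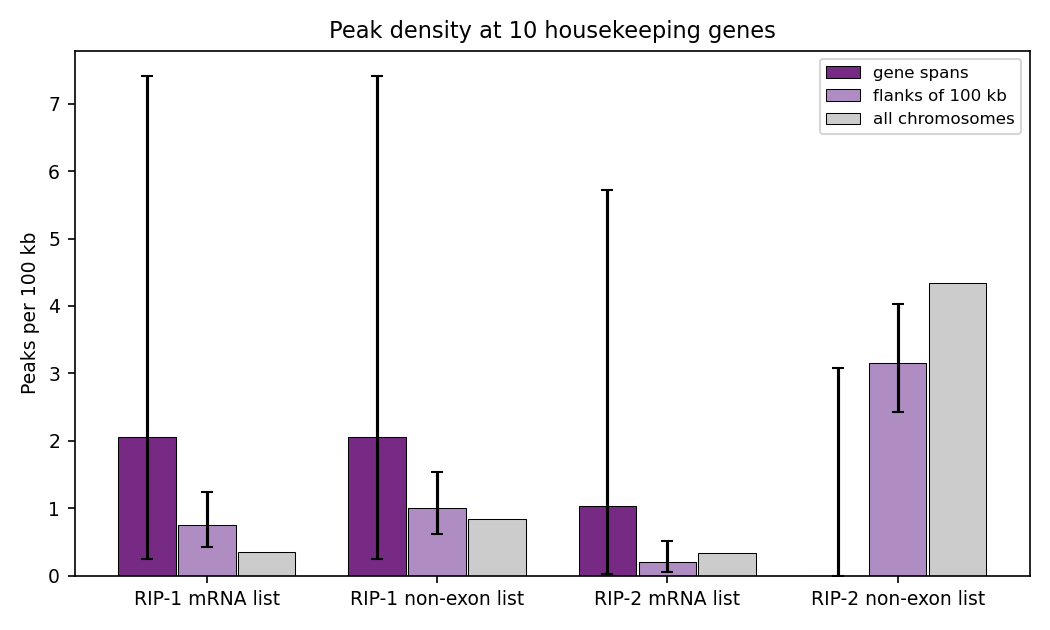
Peaks per 100 kb in the summed gene spans, in flanks of 100 kb and over all chromosomes, for each list. Error bars are 95% Poisson intervals for counting error alone, except at the spans of the RIP-2 non-exon list, where the bar reaches from 0 to the limit of 3.08 that a count of 0 allows by the rule of 3 counts.

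In the RIP-1 non-exon list the 2 peaks inside the genes had higher scores than every peak of the flanks, but not a higher fold enrichment in both cases. The peaks inside TUBA1B and GAPDH scored 3100 and 2253, against a median of 63.1 and a maximum of 377 among the 20 peaks in the flanks, which had FDR values above 5% throughout. Fold enrichment was 16.91 for TUBA1B and 6.88 for GAPDH, against a median of 6.25 and a maximum of 14.14 in the flanks, where 8 of 20 peaks exceeded GAPDH. In the RIP-1 mRNA list the scores inside were 3100 for EEF2 and 96.5 for PKM, against 50.4 to 1178 in the 15 flank peaks with a median of 118. In the RIP-2 mRNA list the PKM segment had 107, against 105 to 175 in the 4 flank peaks. The 63 RIP-2 non-exon peaks of the flanks had a median score of 79.9, and the list's median was 80.6. None of the 63 had an FDR of 5% or less, and neither had any other peak of that list.

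Several of these genes have copies elsewhere in the genome. RefSeq names 65 pseudogenes after GAPDH, 50 after EEF1A1, 20 after HSPA8, 14 after ACTB, 5 after PKM, 4 after ENO1 and 2 after NCL, and none after EEF2, TUBA1B and HSP90AB1, by symbol alone. Copies named in another way were not counted. Of the genes with a peak, GAPDH had 65, PKM had 5, and EEF2 and TUBA1B had none by this naming. The part that reads shared with such copies play in the presence or absence of a peak was not tested.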

How the data were processed

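Per the labels' protocols, RNA was freed of ribosomal RNA and read from both ends, 150 bp each. The submitters' processing notes name cutadapt 1.9.3, HISAT2 2.0.4 and hg19. The deposited peak names carry the prefix of MACS, and the sources used here give neither its version nor its settings or control library. The deposited score of each peak (all 4 lists), and the deposited fold enrichment (a ratio) and FDR in percent (non-exon lists), have no header and were read from their values and column order. Non-exon positions count from 1. The counting base of the mRNA lists is unknown, so these positions may be off by 1 bp.

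Gene spans were those given for hg19, and strands follow RefSeq (for ACTB, textbook knowledge). Peaks were counted, ranked within their own list and measured to the nearest span with pandas 2.3.3, after the interval functions had been checked on simulated data. Flanks were 100 kb on each side, windows were non-overlapping, and intervals cover counting error only. Genes and lists were chosen with earlier results of these data known. All 10 genes are named, and each of their peaks is described. The depth of every library is unknown.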

Additional observations from a re-analysis of the deposited data

How the results depend on the processing

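Across the alternative settings, 50 values stayed within their bounds and 8 moved beyond them. The bounds were 1.5 times the main value for counts in the genes, the 95% Poisson interval for densities in flanks and the 95% Wilson interval for shares of windows, which is narrow. The count of peaks in the genes was unchanged when at least 50% or the midpoint of a peak had to lie inside, and with spans extended by 1000 bp. It was also unchanged with starts counted from 0, with the upper 50% of each list by score and with the gene's strand alone. A RIP-2 non-exon list cut to the length of that of RIP-1 left it unchanged too. In the RIP-2 non-exon list the count was 0, which only the extended spans could have raised. The other settings applied to that list can only take peaks away. Their values of 0, which are among the 50, were therefore fixed in advance. Peaks with a score of 100 or more left 1 in the RIP-1 mRNA list, EEF2, since PKM scored 96.5 there. The count of RIP-1 peaks shared with RIP-2 was 0 in all 4 other definitions of sharing. An overlap of at least 50% of both peaks, or a midpoint inside the RIP-2 peak, is narrower than the main definition. These could not have raised the count. A partner in either kind of list, or edges within 1000 bp, could have raised it and did not. With flanks of 500 kb, peaks per 100 kb were 1.56 in the RIP-1 non-exon, 0.540 in the RIP-2 mRNA and 4.68 in the RIP-2 non-exon list, and with flanks of 50 kb 0 in the RIP-2 mRNA list; the cause was not tested. Windows within 5 Mb of the genes held a peak in 3.48% (RIP-1 mRNA), 6.92% (RIP-1 non-exon) and 2.46% (RIP-2 mRNA) of cases. No paired analysis was possible because the lists hold no values for single libraries, and no replicate could be left out within a list. Unknown depth limits every comparison of scores between the experiments.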
